A study of Mus musculus with 9 samples.

Results

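Hox genes encode homeodomain transcription factors that set positional identity along the head-to-tail axis of the embryo. In the mouse they lie in 4 clusters, Hoxa to Hoxd, and each gene is numbered by its paralog group, from 1 at the end active earliest and farthest forward to 13 at the end active last and farthest back. The 39 Hox genes described here were every gene of the deposited table whose symbol is Hox, a letter from a to d and a number from 1 to 13, of 24330 genes used. Antisense transcripts were left out. The Hoxa cluster held 11 of them, Hoxb 10, Hoxc 9 and Hoxd 9, on chromosomes 6, 11, 15 and 2.

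The embryos came from heterozygous intercrosses of mice with a targeted mutation of *Scarb1*, which encodes SR-B1, a lipoprotein receptor that takes up lipid from high-density lipoprotein. Groups were KO-NTD (embryos without SR-B1 that had a neural tube defect), KO-N (embryos without SR-B1 that looked normal) and WT (wild-type embryos), all at E9.5, on a mixed C57Bl/6J and 129S2 background and labelled female. Each of the 3 samples per group was a pool of 3 whole embryos, so a value averages over every tissue, and embryos of a pool cannot be told apart. The deposited values are 1 FPKM (a read density per kilobase, scaled to the mapped fragments of a library) per group, with lower and upper confidence bounds. No library-level value was analysed here, so no replicate test could be run, and the bounds are the only measure of error used. Whether they include the spread between pools is not stated.

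*Scarb1* itself was listed at 3.12 FPKM in KO-NTD embryos and 3.34 FPKM in KO-N embryos, against 17.1 FPKM in WT embryos. Folds below are log2 ratios of KO-NTD over KO-N computed with 0.1 FPKM added to each value, and intervals are 95% intervals made from the deposited bounds. Of the 39 Hox genes, 35 had a mean of at least 0.5 FPKM over both KO groups. The other 4 were *Hoxb13*, *Hoxc12*, *Hoxc13* and *Hoxd12*. Of 12 genes listed for yolk sac visceral endoderm, 11 passed the same filter (*Fxyd2* fell short of it). All 11 were higher in KO-NTD embryos by 0.5 or more on the log2 scale, where 2.4% of all genes past the filter were. The 12 summed to 172.5 FPKM in KO-NTD embryos and 31.1 FPKM in KO-N embryos. The authors report several of them, such as *Apoa1* and *Cubn*, as upregulated in KO-NTD embryos, and describe dissecting the yolk sacs. None of the 12 was at 0. The 8 primitive red cell genes summed to 3073 FPKM in KO-NTD embryos and 4697 FPKM in KO-N embryos. All 8 folds were below 0, as were those of 7906 of all 13569 genes past the filter. The 8 genes chosen for the labelled embryo tissue (neural, somite, heart and mesenchyme genes such as *Sox2* and *Twist1*) all passed the filter. They summed to 183.1 and 216.1 FPKM in KO-NTD and KO-N embryos. Past a fold of 0.5 in either direction were 0 of the 8, beside 4.89% of all genes past the filter. Their folds were below 0 for 6 and above 0 for 2. The interval excluded 0 for *Sox2* (-0.43, -0.74 to -0.12) and *Pax3* (-0.36, -0.71 to -0.02). Of the trophoblast genes 1 of 6 passed the filter (*Prl3d1*, 1.01 and 1.56 FPKM in KO-NTD and KO-N embryos), and of the decidua genes 2 of 4, at most 3.88 and 4.39 FPKM. The part of these cell types in the Hox values was not tested.

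The homeobox is the shared stretch that encodes the DNA-binding homeodomain, and the last helix of that domain makes the contacts with DNA. It was found in the coding sequence of all 39 members, and 33 bases of it, codons 48 to 58 of 60, are shown for the genes that differ between groups and for their nearest relatives, to show how alike members of a paralog group are at a stretch that 50-base reads could confuse. Sequences are from GENCODE M21 on GRCm38.p6, the mm10 build of the files, and capitals mark bases that differ from the most common base at that position over the 39 members.
Hoxd13, chr2:74670071-74670103, plus strand: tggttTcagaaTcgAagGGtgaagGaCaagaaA
Hoxd11, chr2:74684058-74684090, plus strand: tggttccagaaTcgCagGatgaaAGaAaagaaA
Hoxd10, chr2:74694282-74694314, plus strand: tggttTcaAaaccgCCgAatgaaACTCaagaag
Hoxc10, chr15:102970989-102971021, plus strand: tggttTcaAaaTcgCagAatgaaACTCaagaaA
Hoxd9, chr2:74699356-74699388, plus strand: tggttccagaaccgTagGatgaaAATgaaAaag
Hoxc9, chr15:102984071-102984103, plus strand: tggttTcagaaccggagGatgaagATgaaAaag
Hoxc8, chr15:102992712-102992744, plus strand: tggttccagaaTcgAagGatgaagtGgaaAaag
Hoxd1, chr2:74764228-74764260, plus strand: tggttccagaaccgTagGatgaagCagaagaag
Hoxa10, chr6:52232560-52232592, minus strand: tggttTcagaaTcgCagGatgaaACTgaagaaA
Hoxa11, chr6:52243408-52243440, minus strand: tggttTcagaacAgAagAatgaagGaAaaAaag
Hoxa13, chr6:52258934-52258966, minus strand: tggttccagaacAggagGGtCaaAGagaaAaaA
*Hoxc10* differed from the most common base at 10 of 33 positions, *Hoxd10* at 9 and *Hoxa10* at 8. Over all 180 bases of the homeobox, pairs within a paralog group were 80.6% identical in median (range 67.2 to 93.9%, 42 pairs) and pairs from different paralog groups 60.6% (46.1 to 88.9%, 699 pairs). *Hoxc10* and *Hoxd10* were 82.8% identical, the neighbours *Hoxd10* and *Hoxd9* 71.1%. Only 4 members shared any 50-base word of their transcripts with a Hox gene of another cluster, at most 0.364% of their words, and *Hoxc10* shared 6.4% of its words with *Hoxc5* of its own cluster. *Hoxd11* shared none with a Hox gene and 10% with other genes, so its reads may be counted in part elsewhere. *Hoxd3* shared 8.11% of its words with *Hoxd4* and 52.1% with genes other than Hox. For *Hoxd4* the shares were 11.3% with *Hoxd3* and 35.4%. Both lie at a locus merged over 4 genes, so their values may not be separate.

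The lowest KO-NTD levels relative to KO-N were at the posterior end of the Hoxd and Hoxc clusters. In mm10 the deposited loci are chr2:74668310-74671599 for *Hoxd13*, chr2:74679558-74687016 for *Hoxd11*, chr2:74691891-74695106 for *Hoxd10*, chr2:74697763-74700208 for *Hoxd9* and chr15:102966796-102971897 for *Hoxc10*, each listed for that gene alone. *Hoxd11*, which patterns the forearm and the kidney together with *Hoxa11*, was listed at 1.02 FPKM in KO-NTD embryos, with bounds of 0.719 and 1.32, and 2.68 FPKM in KO-N embryos, with bounds of 2.06 and 3.30. The bounds do not overlap, and the fold was -1.31 (95% interval -1.81 to -0.82). *Hoxd10*, a regulator of lumbar motor neurons and hindlimb position, was at 1.96 FPKM in KO-NTD embryos (bounds 1.36 and 2.56), against 3.74 FPKM in KO-N embryos (bounds 2.78 and 4.70), a fold of -0.90 (-1.44 to -0.36). *Hoxc10*, its paralog in the lumbar spinal cord, was at 5.30 FPKM in KO-NTD embryos (bounds 4.18 and 6.43), against 10.3 FPKM in KO-N embryos (bounds 8.41 and 12.2), a fold of -0.95 (-1.34 to -0.55). For all 3 genes the bounds of the groups were apart. *Hoxd13*, which acts in the digits and the genital tubercle, was at 1.36 FPKM in KO-NTD embryos (bounds 0.921 and 1.80), against 2.29 FPKM in KO-N embryos (bounds 1.64 and 2.94), a fold of -0.71 (-1.28 to -0.14). Its bounds overlapped. With 1 FPKM added to each value the fold of *Hoxd13* was -0.48, short of 0.5, and that of *Hoxd11* -0.87. In whole embryos, fewer cells that express a gene and less RNA per such cell cannot be told apart.

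These 4 were all the Hox genes lower by 0.5 or more, 4 of 35 (11.4%), where 2.49% of the 13569 genes past the filter were lower by that much. The 95% interval lay below 0 for the same 4 genes (11.4%, against 2.53% of all genes) and above 0 for *Hoxa7*, *Hoxc8* and *Hoxd1* (8.57%, against 2%). The bounds were apart in the lower direction for 3 of 35 (8.57%), against 1.13% of all genes. In the higher direction 2 of 35 passed the fold (5.71%, against 2.4% of all genes), and *Hoxc8* alone had bounds apart (2.86%, against 1.17%). Nearest to the fold of 0.5, *Hoxc8* at 0.55, *Hoxd1* at 0.58 and *Hoxd13* at -0.71 lay inside it, and *Hoxc11* at -0.497, *Hoxa4* at -0.48 and *Hoxa7* at 0.45 lay outside.

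**Figure D1:**
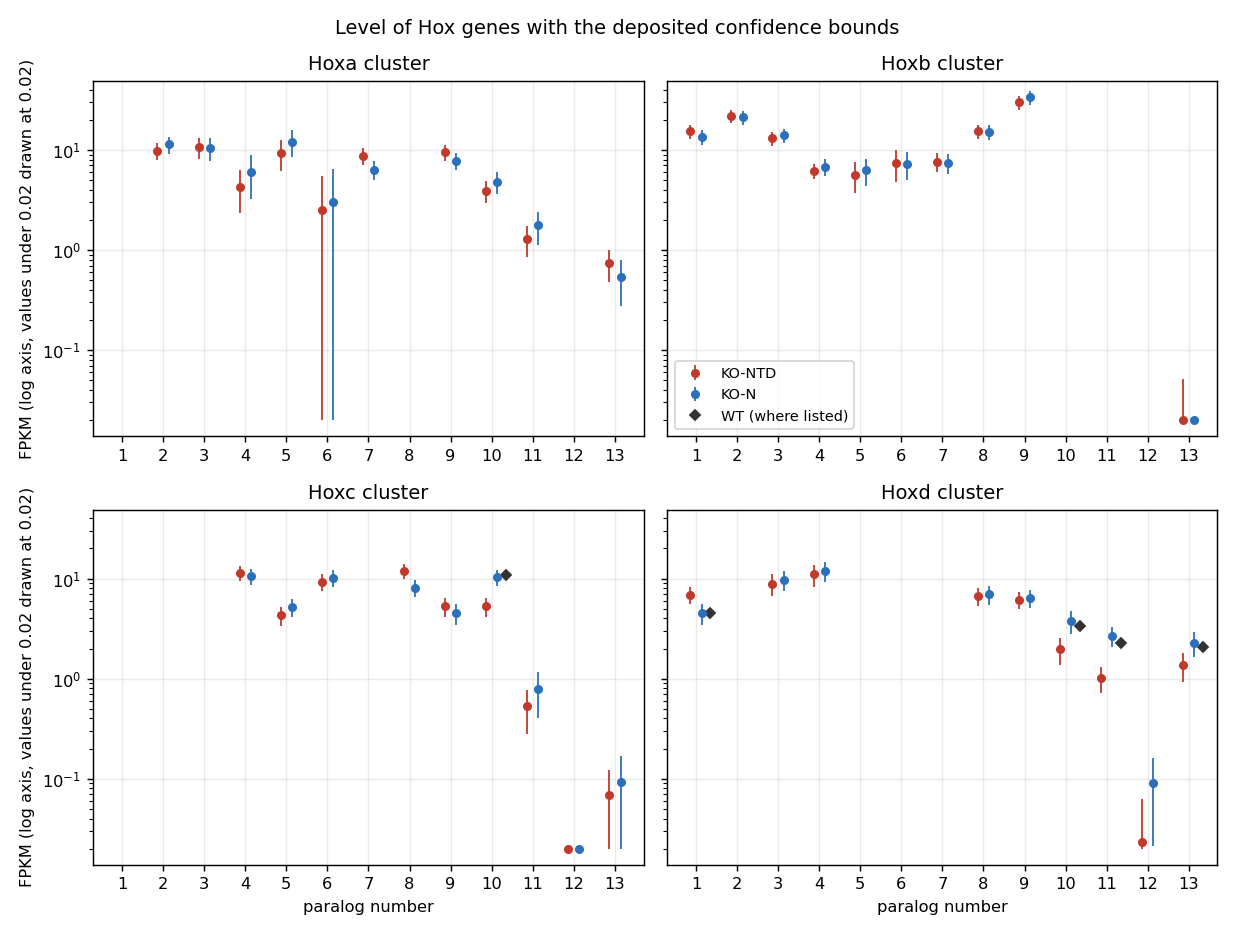
FPKM of the Hox genes reported here in KO-NTD (red) and KO-N (blue) embryos on a log axis, by paralog number, with a panel per cluster and the deposited confidence bounds as bars; black diamonds are WT values, drawn for 5 genes. *Hoxd10*, *Hoxd11* and *Hoxd13* lie lower in KO-NTD embryos than in KO-N embryos, while the Hoxb values nearly coincide.

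The genes of groups 10 to 13 in Hoxd, taken with those in Hoxc, were set beside *Hoxd3* to *Hoxd9*. This split was not among the planned classes and lies where the folds change. The contrast therefore describes these values and tests nothing. In Hoxa, which was not included, the 3 genes of groups 10 to 13 past the filter had a median of -0.30 and ranged from -0.42 to 0.42. The 5 genes of groups 10 to 13 in Hoxc and Hoxd that passed the filter had a median fold of -0.90 and ranged from -1.31 to -0.50, and together they summed to 10.2 FPKM in KO-NTD embryos and 19.8 FPKM in KO-N embryos. The 4 genes *Hoxd3*, *Hoxd4*, *Hoxd8* and *Hoxd9* had a median of -0.09 and ranged from -0.12 to -0.06. The anterior *Hoxd1*, at 0.58, was left out of these 4. In the Hoxc cluster, *Hoxc4* to *Hoxc9* ranged more widely, from -0.27 to 0.55. *Hoxd9*, which acts in the lumbar and sacral axis, was at 6.15 FPKM in KO-NTD embryos and 6.42 FPKM in KO-N embryos. The fold of *Hoxd10* was lower than that of *Hoxd9* by a difference of -0.84 (95% interval -1.50 to -0.17). *Hoxc9*, which specifies thoracic motor columns, was at 5.28 FPKM in KO-NTD embryos and 4.51 FPKM in KO-N embryos, a fold of 0.22. *Hoxc10* lay below it by -1.17 (-1.75 to -0.58), the widest step between neighbours among the 4 whose interval excluded 0. Of 31 neighbouring pairs compared in this way, the other 2 were *Hoxc8* against *Hoxc6*, at 0.68 (0.16 to 1.195), and *Hoxd3* against *Hoxd1*, at -0.70 (-1.33 to -0.07).

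**Figure D2:**
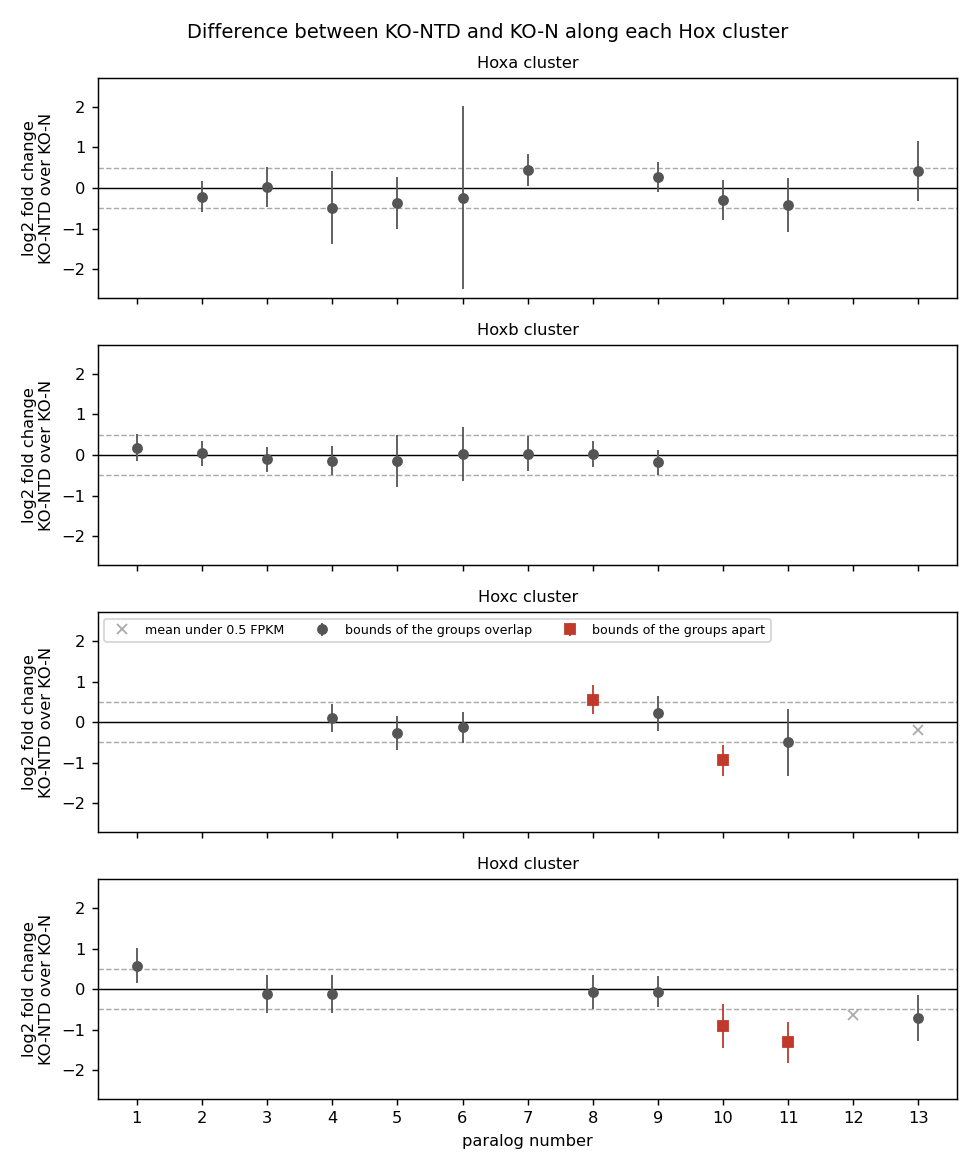
KO-NTD over KO-N on the log2 scale by paralog number in each cluster, with 95% intervals; squares are genes whose group bounds do not overlap, crosses are genes under 0.5 FPKM (drawn where both groups are above 0) and dashed lines mark 0.5 and -0.5. The Hoxd and Hoxc values are lower from paralog group 10 on than at group 9, and the Hoxb values stay between -0.17 and 0.18.

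In the Hoxa cluster the step of *Hoxa10* relative to *Hoxa9* was -0.57 (-1.18 to 0.04), an interval that holds 0. *Hoxa10*, of the lumbar and hindlimb axis, was at 3.89 FPKM in KO-NTD embryos and 4.81 FPKM in KO-N embryos, a fold of -0.30 (-0.79 to 0.19). *Hoxa11*, the partner of *Hoxd11* in the forearm, was at 1.29 and 1.76 FPKM in KO-NTD and KO-N embryos, a fold of -0.42 (-1.08 to 0.24). *Hoxa13*, the partner of *Hoxd13* in digits and the hindgut, was at 0.746 FPKM in KO-NTD embryos and 0.533 FPKM in KO-N embryos, a fold of 0.42 (-0.31 to 1.15). None of these intervals excluded 0. Across paralogs the difference between the fold of *Hoxd13* and that of *Hoxa13* was -1.13 (-2.06 to -0.20), that between *Hoxd11* and *Hoxa11* -0.89 (-1.72 to -0.07) and that between *Hoxc10* and *Hoxa10* -0.65 (-1.27 to -0.02). The 95% intervals of these 3 differences excluded 0, among 5 of 36 paralog pairs whose interval did. *Hoxd10* and *Hoxa10* differed by -0.60 (-1.33 to 0.13). Intervals were not adjusted for the number of pairs.

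The genes whose interval lay above 0 were *Hoxd1*, *Hoxa7* and *Hoxc8*. *Hoxd1*, which acts in nociceptive neurons, was at 6.87 FPKM in KO-NTD embryos (bounds 5.53 and 8.21), against 4.56 FPKM in KO-N embryos (bounds 3.48 and 5.64), a fold of 0.58 (0.15 to 1.01) with bounds that overlap. *Hoxb1*, which gives the fourth hindbrain segment its identity, was at 15.3 FPKM in KO-NTD embryos and 13.5 FPKM in KO-N embryos, a fold of 0.18. Both had folds above 0, and the interval excluded 0 for *Hoxd1* but not for *Hoxb1* (-0.15 to 0.52). *Hoxc8*, of the brachial and thoracic cord, was at 11.8 FPKM in KO-NTD embryos (bounds 9.81 and 13.9), against 8.07 FPKM in KO-N embryos (bounds 6.55 and 9.59), with bounds apart and a fold of 0.55 (0.19 to 0.90). *Hoxa7*, of the thoracic axis, was at 8.73 FPKM in KO-NTD embryos and 6.37 FPKM in KO-N embryos, a fold of 0.45 (0.05 to 0.84). *Hoxc8* and its paralogs differed: its fold exceeded that of *Hoxb8* by 0.52 (0.0429 to 1.003), and that of *Hoxd8* was -0.61 (-1.16 to -0.06) relative to it.

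The 9 Hoxb genes past the filter summed to 122.3 FPKM in KO-NTD embryos and 125.2 FPKM in KO-N embryos, the highest sum of the 4 clusters. Their folds ranged from -0.17 to 0.18, and no interval excluded 0. *Hoxb9*, of the thoracic axis, was the highest Hox gene, at 29.9 FPKM in KO-NTD embryos and 33.7 FPKM in KO-N embryos, followed by *Hoxb2*, of the hindbrain, at 21.8 and 21.1 FPKM in KO-NTD and KO-N embryos. *Hoxb3* was at 13.1 FPKM in KO-NTD embryos and 14.1 FPKM in KO-N embryos. The bounds of *Hoxb9* did not reach those of the next gene in either group. *Hoxb8* was at 15.4 and 15.1 FPKM in KO-NTD and KO-N embryos, *Hoxb7* at 7.61 and 7.41 FPKM, *Hoxb6* at 7.42 and 7.29 FPKM, *Hoxb4* at 6.17 and 6.80 FPKM and *Hoxb5* at 5.69 and 6.29 FPKM, in the same order of groups.

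The middle and anterior genes of the other clusters lay between -0.48 and 0.27 except for those already named. *Hoxa2*, of the second pharyngeal arch, was at 9.80 and 11.4 FPKM in KO-NTD and KO-N embryos, *Hoxa3*, of the thymus and parathyroid, at 10.6 and 10.5 FPKM, and *Hoxa9* at 9.45 and 7.80 FPKM. *Hoxa5*, which acts in the lung and neck, was at 9.39 and 12.1 FPKM, *Hoxa4* at 4.29 and 6.04 FPKM and *Hoxa6* at 2.52 and 2.99 FPKM, again in KO-NTD and KO-N embryos. The bounds of *Hoxa6* start at 0 in both groups, and the interval of its fold ran from -2.49 to 2.02. In the Hoxc cluster *Hoxc4* was at 11.4 and 10.7 FPKM, *Hoxc5* at 4.32 and 5.23 FPKM and *Hoxc6* at 9.28 and 10.2 FPKM, in KO-NTD and KO-N embryos. *Hoxc11* was at 0.531 and 0.790 FPKM in KO-NTD and KO-N embryos, a fold of -0.50 with an interval of -1.32 to 0.33. In the Hoxd cluster *Hoxd3* was at 8.88 and 9.69 FPKM, *Hoxd4* at 11.1 and 12.0 FPKM and *Hoxd8* at 6.67 and 6.95 FPKM, in KO-NTD and KO-N embryos.

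The members under 0.5 FPKM were all of paralog groups 12 and 13. *Hoxd12* was at 0.0232 FPKM in KO-NTD embryos and 0.0912 FPKM in KO-N embryos, and *Hoxc13*, of hair and nails, at 0.0685 and 0.0933 FPKM. *Hoxb13*, of the tail end and prostate, was at 0.00779 FPKM in KO-NTD embryos and listed at 0 in KO-N embryos, and *Hoxc12* was listed at 0 in both. The deposited tables give no counts, so no limit from a count of 0 is stated.

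Levels are per kilobase, so they can be set side by side. Among the genes past the filter from paralog group 9 onward, levels of KO-N embryos ran from 33.7 FPKM in *Hoxb9* to 0.533 FPKM in *Hoxa13*, and those of KO-NTD embryos from 29.9 FPKM in *Hoxb9* to 0.531 FPKM in *Hoxc11*. By class, the median fold was -0.36 for groups 9 to 13 (12 genes; -0.24 with 1 FPKM added to each value and -0.17 over those with a mean of at least 2 FPKM), -0.06 for groups 5 to 8 (11 genes) and -0.04 for groups 1 to 4 (12 genes), beside -0.11 over all 35 Hox genes and -0.02 over all 13569 genes. Of the 12 genes of groups 9 to 13, 9 were below 0 and 4 were lower by 0.5 or more. Of all 13569 genes, 7906 were below 0 and 2.49% were lower by 0.5 or more. By cluster, the median was -0.21 in Hoxa, 0.02 in Hoxb, -0.13 in Hoxc and -0.12 in Hoxd. The correlation of fold with paralog number was -0.39 (Pearson) and -0.37 (Spearman) over the 35 genes, and -0.79 and -0.71 over the 8 Hoxd genes. In Hoxa it was 0.13 and 0.02 (11 genes), in Hoxb -0.40 and -0.53 (9 genes) and in Hoxc -0.37 and -0.39 (7 genes). These coefficients describe genes that share the same pools, and neighbours in a cluster are not independent.

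WT values are given here for 5 of the Hox genes, from the authors' table that set KO-NTD beside WT and holds only genes selected from that comparison. In that table *Hoxd11* was at 1.02 FPKM in KO-NTD embryos and 2.29 FPKM in WT embryos, a fold of -1.09, and *Hoxc10* at 5.31 and 10.97 FPKM, a fold of -1.03. *Hoxd10* was at 1.96 and 3.34 FPKM, a fold of -0.74, and *Hoxd13* at 1.36 and 2.09 FPKM, a fold of -0.58, in KO-NTD and WT embryos. The 4 posterior genes were thus also listed lower in KO-NTD than in WT embryos. *Hoxd1* was at 6.88 FPKM in KO-NTD embryos and 4.49 FPKM in WT embryos, a fold of 0.60. Because the table was selected on this comparison, these folds are a description: 30.5% of its 789 genes were lower by 0.5 or more and 24.3% higher. No Hox gene was listed in the table of KO-N and WT. That table holds only 128 selected genes, so this absence does not show that the levels were equal.

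A further column of the table of all genes is headed Control, and the sources do not say which libraries it combines. Its value lay within 0.975 and 1.07 times the WT value for these 5 genes, while *Scarb1* was at 12.4 FPKM in this column and 17.1 FPKM in WT embryos. Against this column, KO-NTD was lower by 0.5 or more for the same 4 posterior genes (11.4%, against 2.42% of 13581 genes) and higher for *Hoxd1* (2.86%, against 2.09%), and the bounds were apart for *Hoxc10* and *Hoxd11* (5.71%, against 1.14%). KO-N differed from it by 0.5 or more for no Hox gene, where 1.36% of all genes were lower and 0.863% higher. Bounds of KO-N and this column were apart for 0 Hox genes, beside 0.723% of all genes lower and 0.347% higher. Bounds of KO-NTD and this column were apart in the higher direction for 0 Hox genes, beside 0.839%. KO-NTD and KO-N are each compared with the same column, so these counts are not independent.

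**Figure D3:**
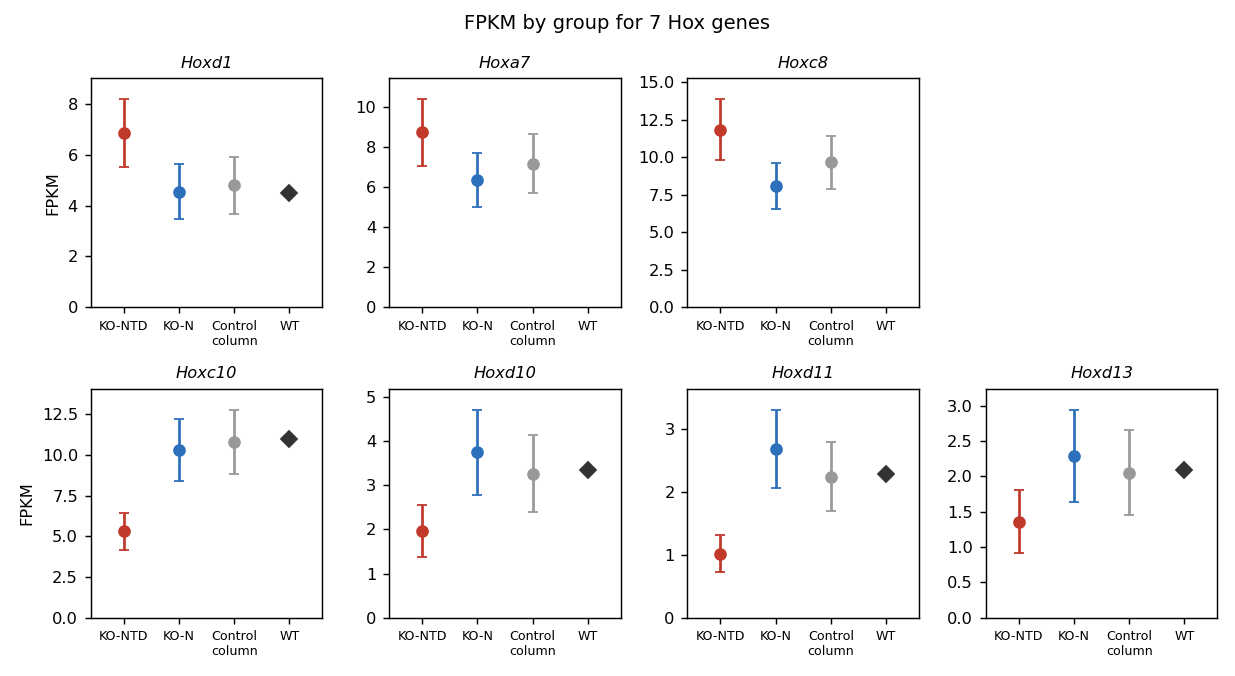
FPKM of 7 Hox genes in KO-NTD embryos, KO-N embryos and the column headed Control, with the deposited bounds as bars, and in WT embryos where listed (a diamond, no bounds; none for *Hoxa7* and *Hoxc8*). The KO-NTD value is the lowest of each panel in the lower row and the highest in the upper row.

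The windows around the start sites of *Hoxd11*, *Hoxd10* and *Hoxd9* are shown because the Hoxd values change between *Hoxd9* and *Hoxd10*. Each holds 300 bases, 250 before and 50 after the start, from RefSeq on GRCm38.p6. Capitals mark matches on either strand to TTTATG or TTTATT, words that caudal (Cdx) factors bind, or to AGGTCA, a retinoic acid receptor core word. TTTATG and TTTATT differ in their last letter, so no match counts for both. Of the windows held for *Hoxd11*, the one farthest 5′ is shown.
Hoxd11, chr2:74679308-74679607, plus strand: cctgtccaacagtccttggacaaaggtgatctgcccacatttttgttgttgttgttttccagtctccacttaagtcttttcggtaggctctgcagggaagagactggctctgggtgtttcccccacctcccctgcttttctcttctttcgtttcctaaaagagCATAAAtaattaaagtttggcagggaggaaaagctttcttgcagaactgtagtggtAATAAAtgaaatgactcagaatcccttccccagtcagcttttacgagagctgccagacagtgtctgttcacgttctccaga
Hoxd10, chr2:74691641-74691940, plus strand: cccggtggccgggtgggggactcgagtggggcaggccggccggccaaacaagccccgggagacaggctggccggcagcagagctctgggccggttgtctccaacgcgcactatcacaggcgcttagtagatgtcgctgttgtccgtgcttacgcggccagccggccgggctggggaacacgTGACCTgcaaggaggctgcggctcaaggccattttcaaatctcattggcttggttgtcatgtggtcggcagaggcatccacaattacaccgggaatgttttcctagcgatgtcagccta
Hoxd9, chr2:74697513-74697812, plus strand: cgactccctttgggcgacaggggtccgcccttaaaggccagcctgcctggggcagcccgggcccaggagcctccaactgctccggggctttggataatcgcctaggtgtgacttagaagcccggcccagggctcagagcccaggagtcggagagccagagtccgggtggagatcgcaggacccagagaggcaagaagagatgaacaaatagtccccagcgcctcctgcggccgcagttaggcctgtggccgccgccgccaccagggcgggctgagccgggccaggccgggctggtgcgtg
TTTATG was found in 11.9% of 32851 windows and in 5 of 24 Hox windows (20.8%), among them the printed window of *Hoxd11*. The other window held for *Hoxd11*, chr2:74682073-74682372, holds 0 matches to any of these words. TTTATT was found in 19.6% and 20.8%, and AGGTCA in 16.3% and 29.2% (7 of 24), with 1 match in the window of *Hoxd10*. None of the words is in the window of *Hoxd9*. Windows were held for 22 of the 39 genes, and a match describes letters only.

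Of the 3 caudal genes, which turn on posterior Hox genes in the tail bud, 2 were higher by 0.5 or more in KO-NTD embryos, with bounds apart. Over all genes past the filter, 2.4% were higher and 2.49% lower by that much, and 1.17% had bounds apart in the higher direction. *Cdx4* was at 17.6 FPKM in KO-NTD embryos and 8.80 FPKM in KO-N embryos, a fold of 0.99 (0.60 to 1.39), and *Cdx2* at 14.9 and 7.93 FPKM, a fold of 0.90 (0.55 to 1.25). *Cdx1* was at 3.503 and 2.75 FPKM in KO-NTD and KO-N embryos, a fold of 0.34 (-0.12 to 0.80). The other ParaHox genes did not pass the filter. Among 12 posterior signal genes past the filter 2 were higher and 0 lower, beside the same 2.4% and 2.49% of all genes. The 2 were *Nkx1-2*, of neuromesodermal progenitors, at 0.69 (4.81 FPKM in KO-NTD embryos and 2.95 FPKM in KO-N embryos), and *T*, the mesoderm regulator brachyury, at 0.52 (10.7 and 7.41 FPKM). *Gdf11*, a signal that shifts trunk to tail Hox expression, was at 6.00 and 7.65 FPKM in KO-NTD and KO-N embryos, a fold of -0.35. *Evx1*, which flanks the Hoxa cluster, was at 4.49 and 2.66 FPKM in KO-NTD and KO-N embryos, a fold of 0.73 (0.26 to 1.21).

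Retinoic acid is a signal that acts on anterior Hox genes. Of its 12 genes, 2 were lower by 0.5 or more, where 2.49% of all genes past the filter were. *Aldh1a3*, a synthesis enzyme, was at 3.68 FPKM in KO-NTD embryos and 6.03 FPKM in KO-N embryos, a fold of -0.70 (-1.09 to -0.31) with bounds apart. *Aldh1a1* was at the low levels of 0.396 and 0.684 FPKM, a fold of -0.66 (-1.44 to 0.11) with bounds that overlap. *Aldh1a2*, the main synthesis enzyme of the trunk, was at 29.1 and 26.4 FPKM in KO-NTD and KO-N embryos, a fold of 0.14. *Cyp26b1*, which degrades it, was at 6.17 and 8.61 FPKM, a fold of -0.48. Of 10 hindbrain segment genes, 2 were higher by 0.5 or more and 0 lower, beside 2.4% and 2.49% of all genes past the filter. Among the higher was *Egr2* (Krox20, a hindbrain segment factor), at 1.87 FPKM in KO-NTD embryos and 0.919 FPKM in KO-N embryos, a fold of 0.95 (0.41 to 1.49).

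The 9 Hox cofactors (Pbx, Meis and Pknox) bind DNA with Hox proteins. Their median was -0.14, and all 9 were below 0, as were 7906 of all 13569 genes past the filter. *Pbx4*, at 1.37 FPKM in KO-NTD embryos and 2.16 FPKM in KO-N embryos, was the only 1 past the fold (-0.62). The 15 Polycomb and trithorax genes, which maintain the silent and active states of Hox clusters, stayed between -0.21 and 0.13. The 7 other neighbours of the clusters past the filter stayed between -0.11 and 0.16. Of 11 limb bud genes, *Tbx4*, the hindlimb factor, was higher at 6.45 FPKM in KO-NTD embryos and 3.38 FPKM in KO-N embryos (fold 0.91), while *Lhx9* was at 0.553 and 1.61 FPKM (-1.39) and *Lhx2* at 7.88 and 11.4 FPKM (-0.53). *Shh*, the posterior limb and floor plate signal, was at 10.2 and 10.3 FPKM in KO-NTD and KO-N embryos. Of 8 nephric and genital mesoderm genes, 2 were higher by 0.5 or more and 1 lower, beside 2.4% and 2.49% of all genes past the filter. Among the higher was *Lhx1* (1.88 and 1.18 FPKM in KO-NTD and KO-N embryos, fold 0.63), with bounds that overlap. *Wt1*, of the kidney and gonad, was at 2.16 and 3.14 FPKM (-0.52). The 3 trunk motor neuron genes past the filter, of 7, stayed between -0.16 and 0.08.

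**Figure D4:**
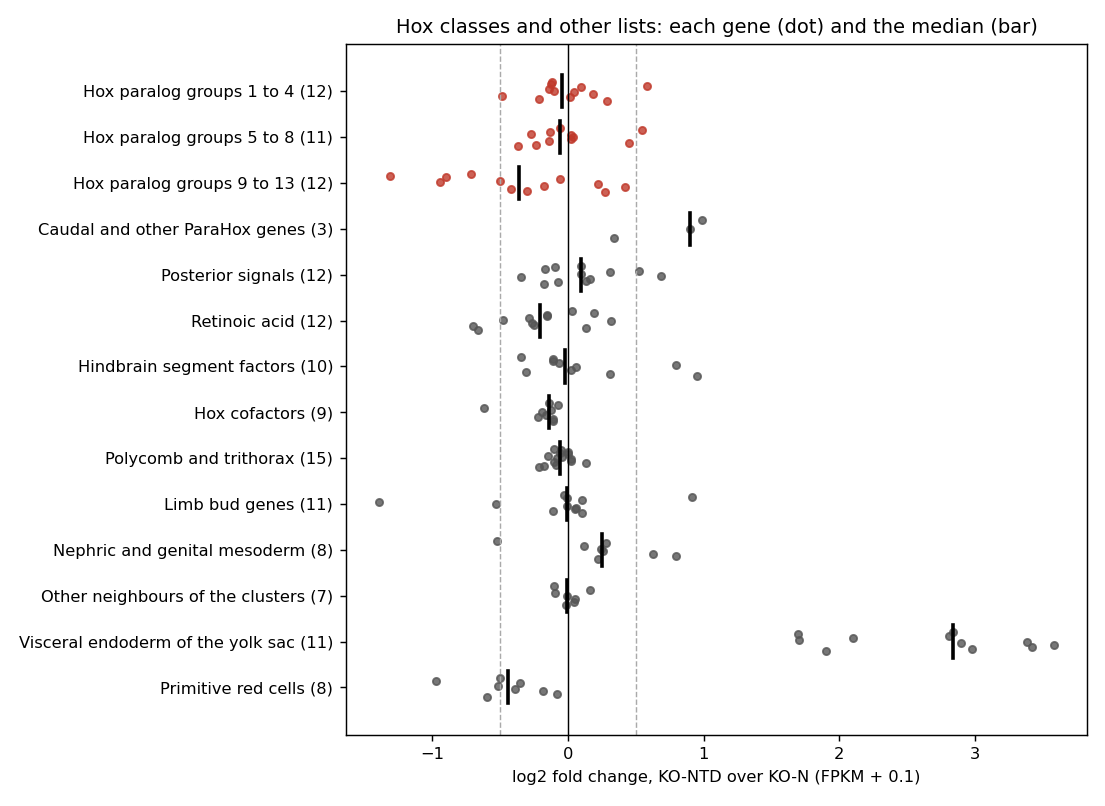
KO-NTD over KO-N on the log2 scale for each gene past the filter (dots) and its median (bar), for the Hox paralog classes (red) and other lists (grey), with the number of genes in brackets. Hox groups 9 to 13 have a median of -0.36, the caudal genes lie above 0 and the visceral endoderm genes from 1.70 to 3.58.

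Of the noncoding genes of the clusters, *Hoxaas3*, antisense to *Hoxa5* and *Hoxa6*, was at 18.2 FPKM in KO-NTD embryos and 10.1 FPKM in KO-N embryos (fold 0.85, interval -0.50 to 2.198), and *Hoxa11os* at 1.14 and 1.75 FPKM (-0.58, -1.34 to 0.17). *Mir10a*, a microRNA that lies between *Hoxb4* and *Hoxb5*, was listed at 0 in KO-NTD embryos and at 4.72 FPKM in KO-N embryos. It was also at 0 in the column headed Control. In that column *Mir196b*, at 0 in both KO groups, was at 17.9 FPKM. With no counts given, how many reads such a level rests on is not known. *Mira*, next to *Hoxa7* and named here after its value was seen, was at 40.3 and 29.6 FPKM in KO-NTD and KO-N embryos, a fold of 0.44 (0.02 to 0.87). Whether strand was used in counting is not stated, so reads of *Hoxa11* and *Hoxa11os*, of *Hoxa5* and *Hoxa6* with *Hoxaas3*, and of *Hoxb5* with its antisense gene cannot be told apart. In all, 10 of the 35 members past the filter lay at a locus merged with another gene, and their median fold was -0.19, while the 25 at a locus of their own had a median of -0.06 and held all 6 genes past the fold.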

How the data were processed

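The authors pooled 3 whole embryos per sample, sequenced poly-A RNA with strand-specific single-end reads of 50 bases, aligned these with TopHat2 0.7 to mm10, and used Cufflinks 2.2.1 for FPKM. The sources used here do not name the annotation. The deposited FPKM are 1 value per group over 3 libraries, with confidence bounds; whether these include the spread between pools is not stated. The authors' comparison tables also hold log2 fold changes, test values, p-values and q-values, which were not used, so no p-value is given. Planned limma fits over 9 libraries were not possible.

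With pandas 2.3.3, numpy 2.4.6 and matplotlib 3.10.9, log2 ratios were computed with 0.1 FPKM added to each value. The upper bound was taken to lie 2 standard deviations above the FPKM, which gave a standard error; 95% intervals span 1.96 of these on each side. Counts cover genes averaging 0.5 FPKM or more over both KO groups. A gene was called at a log2 fold of at least 0.5, or where bounds did not overlap. Members are named, with up to 4 genes per list chosen by size of fold; some items are not reported here. Members and lists were chosen with earlier results of these data known. Coordinates are written from 1; 27 symbols turned into dates were left out of 24357. The deposited tables hold no counts, so no counting interval is given. The interval script was tested on simulated data with errors drawn from the same bounds. That checks the computation only, not whether the bounds hold the spread between pools.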

Additional observations from a re-analysis of the deposited data

How the results depend on the processing

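Of 53 counts and medians recomputed under the alternatives, 49 stayed within the limits set. The limit was 1.5 times for a count. For a median it was the median reach, on each side, of the 95% intervals of its single genes. That limit is wide: the median of groups 9 to 13 moved from -0.36 to -0.17 and stayed within it. With a filter at a mean of 2 FPKM, 2 Hox genes were lower instead of 4, because *Hoxd11* and *Hoxd13* then fell below the filter. With a fold of 0.4, chosen after seeing the data, 7 were lower and 4 higher. By the 95% interval, 3 genes (*Hoxa7*, *Hoxc8* and *Hoxd1*) were higher instead of the 1 with bounds apart. With 1 FPKM added, 3 genes were lower instead of 4, as *Hoxd13* lost its call at -0.48. *Hoxd11* was at -0.87, *Hoxc11* at -0.23, *Hoxa11* at -0.27 and *Hoxa13* at 0.19, and the median of groups 9 to 13 was -0.24. With 0.01 FPKM added, 5 were lower, *Hoxc11* being called at -0.57. At the 2 FPKM filter the median of groups 9 to 13 was -0.17 and the Hoxc median -0.02. No called single-gene value changed sign, and all 176 moved by less than their interval, which is wide for genes of low level. Centring on the median of genes at 1 FPKM or more (-0.02) moved no count. Leaving out a replicate was not run, since each group has 1 value. No paired analysis was possible because the files used here hold 1 value per group and no library-level columns.

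The precision is limited by the bounds, whose distance from the value was 21.2% of the level in median for KO-NTD embryos and 22.2% for KO-N embryos over the Hox genes past the filter, and by whole-embryo pools.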
